A study of Homo sapiens with 4 samples.

Results

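The transcripts of the mitochondrial genome were examined in RNA-seq data of HaCaT cells, a spontaneously immortalized line of human epidermal keratinocytes. The members were all genes whose deposited position lies on the mitochondrial chromosome, 37 of the 44591 genes in the files. They comprise 13 mRNAs, 2 rRNAs and 22 tRNAs by the deposited gene type. The samples form 1 group of 4 biological repeats of untreated cells (replicates 1 to 4), so no condition was compared with another. The RNA was total RNA extracted with Trizol and treated with DNase I. Whether poly(A) RNA was selected or rRNA was depleted, which strand the library kept and how reads were counted are not given in the sources used here. The culture medium held 12% serum according to the labels and 10% according to the methods. The files write the genes without the prefix MT- (COX1 for MT-CO1, CYTB for MT-CYB), and the standard symbols are used below. The position and strand of all 37 genes equalled those of GENCODE release 29 (GRCh38), although the submitters' processing notes name the build hg19.

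Human mitochondria keep a small circular genome whose strands, called heavy and light, are each transcribed into long precursor RNAs. Most mRNAs and both rRNAs in these precursors are flanked by tRNAs, whose excision releases the RNAs between them. The mRNAs encode core subunits of the respiratory chain and of ATP synthase, and the remaining subunits of these complexes are made from nuclear genes. All but 1 of the mitochondrial mRNAs (MT-ND6) are read from the heavy-strand transcript. The bulk libraries measure RNA only, so more mitochondria per cell and more RNA per mitochondrion cannot be told apart, nor can fewer cells of a type and less RNA per cell.

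Along the heavy-strand transcript the mRNAs follow in the order MT-ND1 (chrM:3307-4262), MT-ND2 (chrM:4470-5511), MT-CO1 (chrM:5904-7445), MT-CO2 (chrM:7586-8269), MT-ATP8 (chrM:8366-8572), MT-ATP6 (chrM:8527-9207) and MT-CO3 (chrM:9207-9990). Behind these lie MT-ND3 (chrM:10059-10404), MT-ND4L (chrM:10470-10766), MT-ND4 (chrM:10760-12137), MT-ND5 (chrM:12337-14148) and MT-CYB (chrM:14747-15887), and MT-ND6 (chrM:14149-14673) lies on the minus strand between MT-ND5 and MT-CYB. None of these genes has an intron.

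The genes lie close together, and 5 neighbouring pairs overlap. Reads on an overlap lie in both genes of the pair by position, and how the counting treated them is not given. MT-TI and MT-TQ, which overlap by 3 bases, are on opposite strands. The pairs MT-ATP8 with MT-ATP6 and MT-ND4L with MT-ND4 each share 1 mRNA, and they overlap by 46 and 7 bases. Both junctions are shown with 12 bases on either side, in the heavy-strand transcript's sense, from GENCODE release 29, with the bases common to both reading frames in capitals (chrM:8515-8584 and chrM:10748-10778, plus strand).
MT-ATP8 and MT-ATP6: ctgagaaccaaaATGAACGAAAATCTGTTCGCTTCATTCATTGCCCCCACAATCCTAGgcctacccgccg
MT-ND4L and MT-ND4: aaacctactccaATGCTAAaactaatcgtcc

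The mRNAs also show how tightly the genome is packed at their ends. Of the 13 frames, 6 have a length that is not a multiple of 3, and their final stop codon is known to be completed by the poly(A) tail. In 5 of these the last codon holds 1 base, T, and in MT-ND1 it holds 2 bases, TA. MT-CO1 and MT-ND6 end in AGA and AGG, which are arginine codons in the nuclear code. The last 24 bases of these frames are given as they stand in the RNA's sense, with the final codon or what there is of it in capitals.
MT-CO1 end: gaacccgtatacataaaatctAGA
MT-CO3 end: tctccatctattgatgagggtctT
MT-ND4 end: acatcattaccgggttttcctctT
MT-CYB end: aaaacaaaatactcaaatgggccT
MT-ND3 end: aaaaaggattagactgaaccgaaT
MT-ND2 end: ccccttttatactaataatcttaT
MT-ND1 end: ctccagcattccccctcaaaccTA
MT-ND6 end: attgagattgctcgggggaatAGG

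Replicate 1 stood apart before any mitochondrial gene was considered. Its total count was 73082279, against 17056035 to 19745170 in the other 3, and 76.1% of its reads fell on protein-coding genes, where the others had 95.3% to 96.4%. Levels of mRNAs are therefore given as TPM over protein-coding genes, that is, counts divided by gene length and scaled so that the protein-coding genes of a library sum to 1000000. Of 10 keratinocyte markers, all 10 had over 3 counts in every replicate, with a summed level of 13256 to 18242 TPM over protein-coding genes. Markers of fibroblasts, immune cells, endothelial cells and melanocytes summed to between 0 and 9.70, and PECAM1 and TYR were at 0 in all 4 replicates.

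The mitochondrial genes took 0.434%, 4.38%, 3.40% and 5.86% of all counted reads in replicates 1 to 4. These shares rest on 317483, 746829, 670364 and 1119131 reads, and their exact 95% Clopper-Pearson intervals (0.433% to 0.436%, 4.37% to 4.39%, 3.39% to 3.40% and 5.85% to 5.87%) did not overlap. All intervals given here cover counting error within 1 library alone and take each read as an independent draw. The reads carry no molecular identifiers and several may stem from 1 molecule, so the intervals may be too narrow. The mean share was 3.52% ± 2.29 (SD, n = 4), and the highest replicate was 13.5 times the lowest. Without replicate 1 the mean was 4.55% ± 1.24 (SD, n = 3), so the other 3 differed less among themselves than from replicate 1. The part of depth and of the other RNA classes in this difference was not tested.

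The composition by class differed as well. Mitochondrial mRNA made up 99.7% of the mitochondrial counts in replicate 1 and 72.4%, 63.8% and 82.3% in the others (79.6% ± 15.4, SD, n = 4). Mitochondrial rRNA made up 0%, 27.5%, 36.1% and 17.6% of them (20.3% ± 15.5, SD, n = 4), and mitochondrial tRNA 0.299%, 0.0661%, 0.0958% and 0.0590% (0.130% ± 0.114, SD, n = 4). Without replicate 1 the tRNA share was 0.0736%. Replicate 1 was thus highest in the shares of mRNA and tRNA and held no rRNA read. The mRNAs alone took 0.433%, 3.17%, 2.17% and 4.83% of all counted reads in replicates 1 to 4, so replicate 1 was lowest without the rRNAs too. As a share of protein-coding counts, which leaves out the RNA classes that were abundant in replicate 1, they took 0.569%, 3.33%, 2.27% and 5.01%.

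**Figure D1:**
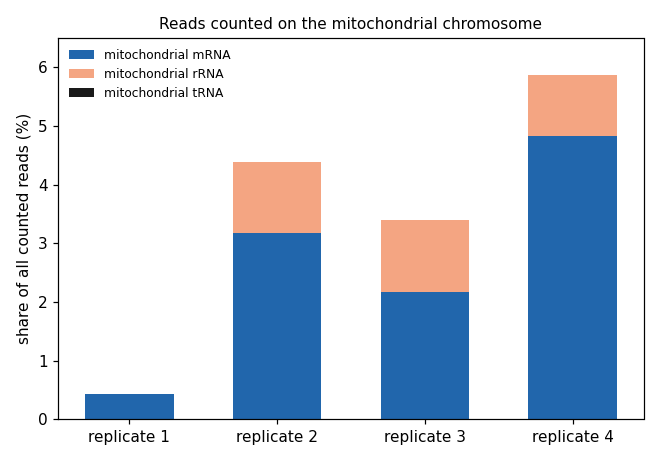
Share of all counted reads (%) on mitochondrial mRNA, rRNA and tRNA genes, stacked for each of the 4 HaCaT replicates. Replicate 1 reaches 0.434% with no rRNA segment, the others reach 3.40% to 5.86%, and the tRNA segment, at most 0.00346%, is too thin to see.

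MT-CO2 and MT-CO1, mRNAs of complex IV, had the highest mean levels of the 13. Complex IV (cytochrome c oxidase) passes electrons to oxygen at the end of the respiratory chain, and MT-CO1, MT-CO2 and MT-CO3 encode its catalytic core. MT-CO2 had 1927, 18562, 12439 and 25026 TPM over protein-coding genes in replicates 1 to 4 (14488 ± 9825, SD, n = 4). MT-CO1 had 4327, 15085, 7587 and 20180 (11795 ± 7179, SD, n = 4), and MT-CO3 had 3964, 8750, 8740 and 12158 (8403 ± 3368, SD, n = 4). MT-CO3 stood below MT-ATP6 and MT-ND4 in replicates 2 and 4 and above both in replicates 1 and 3. MT-CO2 ranked first of all protein-coding genes per kilobase in replicates 2, 3 and 4 and was at rank 80 in replicate 1, where MT-CO1 was at rank 16 and the keratin gene KRT15 was first. Mitochondrial mRNAs held 1, 6, 4 and 10 of the 20 highest places in replicates 1 to 4.

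Complex V, the ATP synthase, has MT-ATP6 and MT-ATP8 as its mitochondrial subunits, both in the membrane part through which protons flow. MT-ATP6 had 346, 11274, 5327 and 17886 TPM over protein-coding genes in replicates 1 to 4 (8708 ± 7576, SD, n = 4). MT-ATP8 had 131, 2012, 1444 and 3270 (1714 ± 1302, SD, n = 4). Complex III, which hands electrons from ubiquinol to cytochrome c, has MT-CYB (cytochrome b) as its one mitochondrial subunit. Its level was 402, 5269, 3357 and 9304 (4583 ± 3730, SD, n = 4).

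Complex I, the NADH dehydrogenase through which most electrons enter the chain, takes 7 subunits from the mitochondrial genome. MT-ND4 was highest, with 344, 9269, 3683 and 16116 TPM over protein-coding genes in replicates 1 to 4 (7353 ± 6906, SD, n = 4). The means of the other 6 lay close together, from 1618 ± 796 for MT-ND3 to 2214 ± 2024 for MT-ND5 (SD, n = 4). MT-ND3 had 470, 1821, 1870 and 2310, and MT-ND5 had 147, 2368, 1414 and 4926. The lowest value of any mRNA in any replicate was that of MT-ND1 in replicate 1, 49.3, and its levels in replicates 2 to 4 were 2051, 1635 and 2853. MT-ND2 ranged from 95 to 4119, MT-ND4L from 383 to 3889 and MT-ND6 from 84.7 to 4364, each lowest in replicate 1 and highest in replicate 4.

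All 13 mRNAs were lowest in replicate 1 and highest in replicate 4, and 12 of 13 were higher in replicate 2 than in replicate 3, the exception being MT-ND3. How many of all protein-coding genes followed the same order was not counted. These counts therefore cannot be read as a trait of the mitochondrial mRNAs. The mean level in replicates 2 to 4 exceeded that in replicate 1 by 2.49 times for MT-CO3 at the least and 44.2 times for MT-ND1 at the most. The mRNAs thus did not differ between replicates by 1 common factor.

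To compare the mRNAs with each other within a library, each was expressed as its share of the summed counts per kilobase of the 13, a quantity that does not depend on the rest of the library. MT-CO1 took 34.1%, 17.9%, 14.7% and 16.0% in replicates 1 to 4 (20.7% ± 9.08, SD, n = 4), MT-CO2 took 15.2%, 22.1%, 24.0% and 19.8% (20.3% ± 3.79) and MT-CO3 took 31.3%, 10.4%, 16.9% and 9.62% (17% ± 10.04). Both MT-CO1 and MT-CO3 were highest in replicate 1, while MT-CO2 was lowest there. The 3 together took 80.6% in replicate 1 and 50.4%, 55.5% and 45.4% in the others.

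MT-ATP6 went the other way, with 2.73% in replicate 1 and 13.4%, 10.3% and 14.2% in replicates 2 to 4. MT-ND4 had 2.71% against 11.0%, 7.11% and 12.8%, and MT-CYB had 3.17% against 6.27%, 6.48% and 7.36%. The shares of the less abundant mRNAs were also lower in replicate 1 for 5 genes. They were 0.750% for MT-ND2, 1.16% for MT-ND5, 0.668% for MT-ND6, 1.03% for MT-ATP8 and 0.389% for MT-ND1, where the lowest share of any of these in replicates 2 to 4 was 2.26%. MT-ND3 was highest in replicate 1 by a narrow margin (3.71% against 2.17%, 3.61% and 1.83%), and MT-ND4L lay within the range of the others (3.02% against 3.35%, 2.11% and 3.08%).

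**Figure D2:**
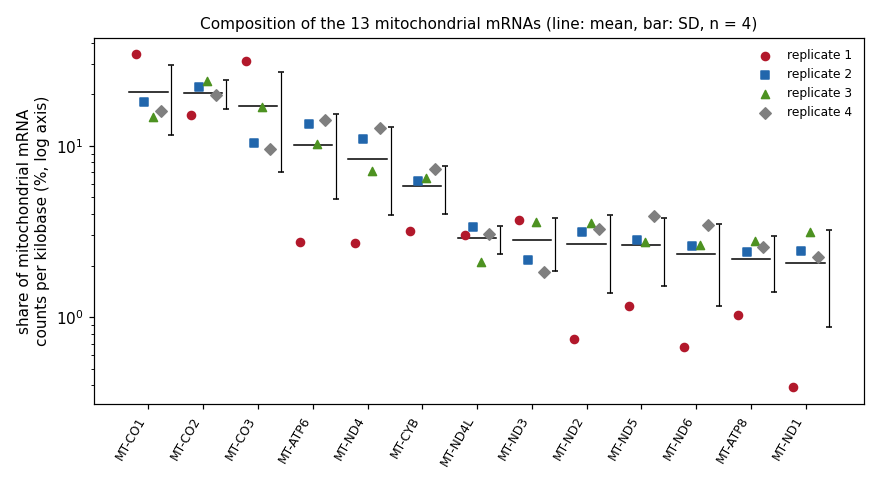
Share of the summed mitochondrial mRNA counts per kilobase (%, log axis) of each of the 13 mRNAs in the 4 replicates, with the mean (line) and SD (bar, n = 4). Replicate 1 lies above the other 3 for 3 mRNAs, below them for 9 and among them for MT-ND4L.

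The share of replicate 1 lay outside the range of the other 3 for 12 of 13 mRNAs, above it for 3 and below it for 9. Relative to the mean of replicates 2 to 4 it differed by between 1.35 (MT-CO3) and -2.75 (MT-ND1) on the log2 scale, with 1.08 for MT-CO1 and -2.21 for MT-ATP6. The coefficient of variation of the shares over 4 replicates ran from 0.187 (MT-ND4L and MT-CO2) to 0.589 (MT-CO3). Without replicate 1 it ran from 0.0626 (MT-ND2) to 0.374 (MT-ND3), so MT-ND2 was among the more variable shares with replicate 1 and was the least variable without it.

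The order of the 13 mRNAs per kilobase was similar in replicates 2 and 4 and less so elsewhere. The Spearman correlation over the 13 was 0.945 between replicates 2 and 4 and 0.725 for both pairs with replicate 3, and it was 0.533 to 0.687 between replicate 1 and the others. These values describe 13 genes of 1 chromosome and 1 annotation, which are not independent. In the order of mean shares, 3 of the 12 neighbouring pairs kept their direction in all 4 replicates. MT-ATP6 exceeded MT-ND4 by 0.24 ± 0.22 (log2, SD, n = 4), though by only 0.01 in replicate 1. MT-CYB exceeded MT-ND4L by 0.96 ± 0.66 and MT-ND5 exceeded MT-ND6 by 0.28 ± 0.34. The other 9 neighbouring pairs, among them MT-CO1 with MT-CO2 and MT-CO2 with MT-CO3, changed places between replicates. When 1 replicate was left out, the mRNAs were ordered anew by the mean of the other 3, which gives other neighbouring pairs. Of the 12 pairs in the new order, 5 kept their direction without replicate 1 and 1 did without replicate 2 or 4.

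The mRNAs were also compared by complex. The mean count per kilobase of the 3 complex IV mRNAs was 15.2, 4.27, 5.21 and 3.47 times that of the 7 complex I mRNAs in replicates 1 to 4. The log2 ratio was 2.55 ± 0.95 (SD, n = 4), positive in 4 of 4 replicates (exact sign-flip permutation test over replicates, two-sided, p = 0.125, adjusted p = 0.188 over 9 ratios). With 4 replicates 0.125 is the smallest p that this test can give, so no ratio could pass 0.05. Without replicate 1 the ratio was 2.09 (4.26-fold).

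MT-ND6, the one mRNA read from the light-strand transcript, was set against the mean of the 12 heavy-strand mRNAs. Its counts per kilobase were 0.0807, 0.321, 0.325 and 0.429 of that mean in replicates 1 to 4. The log2 ratio was -2.03 ± 1.09 (SD, n = 4), below 0 in 4 of 4 replicates (exact sign-flip test, p = 0.125, adjusted p = 0.188), and -1.49 without replicate 1. The mean of the 12 is raised by the 3 complex IV mRNAs, and against the median of the 12 the log2 ratio was -1.16. MT-ND5, which ends next to MT-ND6 on the other strand, had 1.73, 1.08, 1.04 and 1.13 times the counts per kilobase of MT-ND6. The heavy-strand precursor also runs across MT-ND6, and without a stated strand its reads cannot be told apart from those of the MT-ND6 mRNA.

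For mRNAs that share 1 molecule the counts per kilobase were unequal. MT-ATP8 had 0.378 times the counts per kilobase of MT-ATP6 in replicate 1 (95% interval 0.349 to 0.410) and 0.178, 0.271 and 0.183 times in replicates 2 to 4. MT-ND4L had 1.11 times those of MT-ND4 in replicate 1 (1.07 to 1.16) and 0.304, 0.296 and 0.241 times in replicates 2 to 4. In both pairs the shorter, first frame was relatively higher in replicate 1 than in any other replicate. The short frames, 207 bases for MT-ATP8 and 297 for MT-ND4L, are also those for which the overlap shown above takes the larger part. What part the counting of overlapping reads has in these ratios was not tested.

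The 12S rRNA (MT-RNR1, chrM:648-1601) and the 16S rRNA (MT-RNR2, chrM:1671-3229) form the RNA core of the mitochondrial ribosome. MT-RNR1 had 0, 33323, 45589 and 16521 counts in replicates 1 to 4, and MT-RNR2 had 0, 172417, 196152 and 180759. Neither had a single read in the deepest library, where 3 counts correspond to 0.0410 counts per 1000000 counted reads (CPM). Set against that floor of 3 counts in replicate 1, MT-RNR1 was at least 21089-fold and MT-RNR2 at least 230741-fold higher in each of the other replicates. In the file of replicate 1 the description of both genes is that of nuclear 45S rRNA clusters, whereas in the other files it is that of the small and large mitochondrial rRNA. The position is the mitochondrial one in all 4, and the part of this difference in annotation in the zeros was not tested.

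In replicates 2 to 4, MT-RNR2 was nearly constant at 10109, 9934 and 9472 CPM, and MT-RNR1 lay at 1954, 2309 and 866 CPM. The counts per kilobase of MT-RNR2 were 3.17 (95% interval 3.13 to 3.20), 2.63 (2.61 to 2.66) and 6.70 (6.59 to 6.80) times those of MT-RNR1. The log2 ratio was 1.93 ± 0.71 (SD, n = 3), positive in 3 of 3 replicates (exact sign-flip test, p = 0.25, the smallest that 3 values allow, adjusted p = 0.281). Both rRNAs come from the same precursor. The interval of their ratio in replicate 4 did not overlap those of the other 2, with each read taken as an independent draw.

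Per kilobase, the rRNAs were set against the mRNAs in the 3 replicates with rRNA reads. The mean rRNA was 1.69 times the mean mRNA in replicate 2, 2.42 times in replicate 3 and 0.920 times in replicate 4. The log2 ratio of 0.64 ± 0.71 (SD, n = 3) was smaller than its spread and positive in 2 of 3 replicates (exact sign-flip test, p = 0.50, adjusted p = 0.50). With the median over genes in place of the mean, it was 1.73 ± 0.78 (SD, n = 3), larger than its spread (exact sign-flip test, p = 0.25, the smallest that 3 values allow). The height of the rRNAs relative to the mRNAs therefore depended on how the mRNAs were averaged.

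The mitochondrial tRNAs gave few reads. The 22 genes had 948, 494, 642 and 660 counts in all in replicates 1 to 4, which is 13, 29, 32.5 and 34.6 CPM. Most of them came from MT-TP, the tRNA for proline, in replicates 2 to 4. Only MT-TP had over 3 counts in all 4 replicates. MT-TP and MT-TT, the tRNA for threonine, stand side by side on opposite strands (chrM:15956-16023, minus strand, and chrM:15888-15953, plus strand). They are shown whole, in the sense of the RNA, because they had the most reads of any tRNA.
MT-TP: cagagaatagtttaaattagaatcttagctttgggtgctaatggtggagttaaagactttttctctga
MT-TT: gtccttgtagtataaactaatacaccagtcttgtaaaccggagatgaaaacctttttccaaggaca

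MT-TP had 250, 493, 633 and 650 counts in replicates 1 to 4, or 3.42, 28.9, 32.1 and 34.1 CPM. It made up 26.4% of the mitochondrial tRNA counts in replicate 1 (95% interval 23.6% to 29.3%) and 99.8%, 98.6% and 98.5% in replicates 2 to 4. MT-TT had 325 counts in replicate 1 and 0 in the other 3. These neighbours were therefore both read in replicate 1, and only MT-TP in replicates 2 to 4. From which strand these reads came cannot be told, as the strand that the library kept is not given.

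A set of other tRNAs was read in replicate 1 alone. MT-TQ had 132 counts there, MT-TM 87, MT-TV 51, MT-TI 37, MT-TS1 17 and MT-TE 5, and each had 0 in replicates 2, 3 and 4. Relative to the floor of 3 counts in each other library, replicate 1 was at least 25.3-fold higher in CPM for MT-TT. It was at least 10.3-fold higher for MT-TQ, 6.77-fold for MT-TM, 3.97-fold for MT-TV and 2.88-fold for MT-TI. MT-TS1, at 0.233 CPM in replicate 1, lay little above the floors of the other libraries (0.152 to 0.176 CPM). MT-TE, at 0.0684 CPM, lay below them, so its zeros there do not set replicate 1 apart. MT-TA had 27 counts in replicate 1 and 1 in replicate 3, and MT-TY had 16 in replicate 1 and 1 in replicates 3 and 4. MT-TF, the first gene behind the heavy-strand promoters, had 1, 0, 6 and 9 counts. MT-TC had 1 count in replicate 3 and MT-TL2 1 count in replicate 2, and neither had any other. The remaining 9, MT-TD, MT-TG, MT-TH, MT-TK, MT-TL1, MT-TN, MT-TR, MT-TS2 and MT-TW, were at 0 in every replicate. At these depths a count of 0 allows up to 0.0410 CPM in replicate 1 and 0.152 to 0.176 in the others. These limits come from depth alone. How well the libraries captured RNAs as short as these genes, 59 to 75 bases, was not tested. A count of 0 therefore does not show that a tRNA was absent from the cells.

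By the annotated strand of the gene, the 14 heavy-strand tRNAs had 501, 1, 6 and 9 counts in replicates 1 to 4. The 8 light-strand tRNAs had 447, 493, 636 and 651. The log2 ratio of their mean counts per kilobase was -0.59, -9.82, -7.60 and -7.05, with a mean of -6.26 ± 3.96 (SD, n = 4). It was below 0 in 4 of 4 replicates (exact sign-flip test, p = 0.125, adjusted p = 0.188) and -8.15 without replicate 1. The value of replicate 2 rests on 1 heavy-strand count, under the limit of 3 counts, so its size is uncertain. With a pseudocount of 1 TPM the mean was -4.90 ± 2.93 (SD, n = 4). Since MT-TP made up nearly all light-strand counts in replicates 2 to 4, the ratio there rests on that 1 gene. Without a stated library strand, reads of the opposite transcript cannot be told apart from those of a tRNA. The ratio therefore compares 2 sets of genes and does not measure the transcription of the strands.

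Nuclear tRNA genes were measured beside the mitochondrial ones. The 425 nuclear tRNA genes had 2678, 88, 73 and 70 counts in replicates 1 to 4, and 105, 7, 3 and 5 of them had over 3 counts. As a share of all counted reads, nuclear tRNAs took 0.00366% in replicate 1 and 0.000367% to 0.000516% in the others. The mitochondrial tRNAs took 0.00130% in replicate 1 and 0.00290% to 0.00346% in the others. On this measure the nuclear tRNAs were highest and the mitochondrial tRNAs lowest in replicate 1. Replicate 1 had reads on 11 of 22 mitochondrial tRNAs and replicates 2 to 4 had reads on 2, 5 and 3, in libraries of less depth (replicate 1 was 4.28 times as deep as replicate 2). The 17 nuclear 5S rRNA genes had 1 read in all, in replicate 2.

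**Figure D3:**
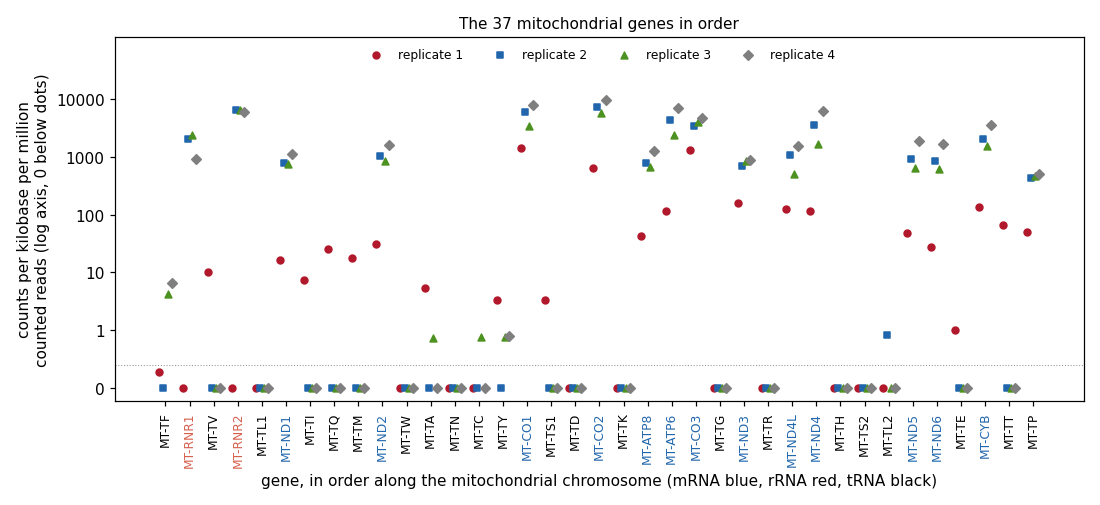
Counts per kilobase per 1000000 counted reads (log axis, zeros drawn below the dotted line) for the 37 mitochondrial genes in their order along the chromosome, 1 symbol per replicate. The mRNAs of all 4 replicates stand in the upper part with replicate 1 lowest, both rRNAs are at 0 in replicate 1, and most tRNAs are at 0 except in replicate 1 and except MT-TP.

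The mitochondrial mRNAs were then set against the nuclear mRNAs for the same complexes, since each complex is assembled from both. The lists held 37 nuclear subunits of complex I, 9 of complex III, 11 of complex IV and 15 of complex V. For complex I the mean mitochondrial mRNA had 1.04, 23, 10.2 and 40.6 times the counts per kilobase of the mean nuclear mRNA in replicates 1 to 4. The ratio was 1.24, 24.8, 12.5 and 45.9 for complex III and 4.54, 35, 16.8 and 46.9 for complex IV. For complex V it was 0.499, 22.0, 8.65 and 37.0. Replicate 1 was lowest for all 4 complexes and replicate 4 highest.

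On the log2 scale the ratio was 3.32 ± 2.33 for complex I, 3.53 ± 2.28 for complex III and 4.23 ± 1.5 for complex IV (SD, n = 4). Each was positive in 4 of 4 replicates (exact sign-flip test, p = 0.125, adjusted p = 0.188). For complex I this rests on a ratio of only 1.04 in replicate 1. Its log2 ratio was 3.18 ± 2.38 by the median over genes and 3.27 ± 2.55 without length correction (SD, n = 4). The exact sign-flip test then gave p = 0.25 for both, so not every replicate was positive. For complex V the log2 ratio was 2.94 ± 2.77 (SD, n = 4) and positive in 3 of 4 (exact sign-flip test, p = 0.25, adjusted p = 0.281). Without length correction it was 1.70 ± 2.85 (exact sign-flip test, p = 0.375). Without replicate 1 the fold was 21.2 for complex I, 24.2 for complex III, 30.2 for complex IV and 19.2 for complex V. The range of these values over complexes was narrower than that over replicates.

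In replicates 2 to 4, no nuclear subunit of any of the 4 complexes was above the lowest mitochondrial mRNA of its complex. In replicate 1, 33 of 37 nuclear subunits of complex I were above it, as were 2 of 9 of complex III, 0 of 11 of complex IV and 12 of 15 of complex V. The nuclear subunits themselves varied less between replicates. Their mean level was 217, 144, 181 and 136 TPM over protein-coding genes in replicates 1 to 4 for complex I, and 750, 403, 570 and 407 for complex IV. It was 324, 213, 269 and 203 for complex III and 478, 302, 391 and 286 for complex V, so the nuclear means were highest in replicate 1 and the mitochondrial ones lowest. The highest nuclear subunit by mean level was NDUFB9 (442) in complex I, CYC1, which is cytochrome c1 (500), in complex III, COX8A (1067) in complex IV and ATP5B, the catalytic beta subunit (1251), in complex V.

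**Figure D4:**
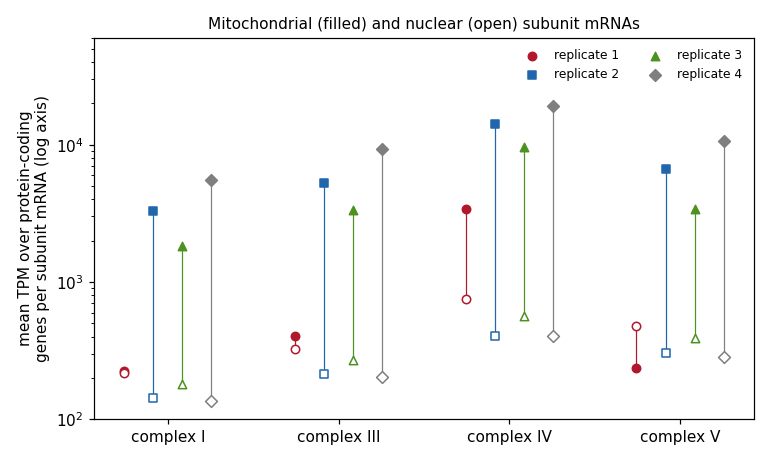
Mean TPM over protein-coding genes (log axis) per mitochondrial (filled) and nuclear (open) subunit mRNA of complexes I, III, IV and V, joined by a line for each replicate. The filled symbols lie above the open ones in replicates 2 to 4, whereas in replicate 1 they nearly coincide for complexes I and III (1.04- and 1.24-fold) and are reversed for complex V (0.499-fold).

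Nuclear genes that make and process mitochondrial RNA had lower mean levels than the mitochondrial mRNAs, though not in every replicate. The means of 18 such factors ran from 10.9 to 232 TPM over protein-coding genes, with a median of 38.0, and the lowest mean of a mitochondrial mRNA was 1618. In replicate 1, however, SLIRP (321), HSD17B10 and FASTKD4 (both 161) exceeded MT-ND1, MT-ND2, MT-ND5, MT-ND6 and MT-ATP8, which lay between 49.3 and 147. There LRPPRC (86.0) exceeded MT-ND1 (49.3) and MT-ND6 (84.7). PRORP (66.7), ELAC2 (65.5), TRMT10C (59.9), TFAM (57.8), POLG (53.9) and SUPV3L1 (51.5) exceeded MT-ND1 in that replicate. POLRMT, the mitochondrial RNA polymerase, had 18.0, 66.1, 73.5 and 68.0 in replicates 1 to 4 (56.4 ± 25.8, SD, n = 4). TFAM, which packages the DNA and acts at its promoters, had 57.8, 36.3, 30.2 and 29.5 (38.5 ± 13.3). POLRMT was thus lowest and TFAM highest in replicate 1. The initiation factor TFB2M (26.2 ± 5.29) and the elongation factor TEFM (25.4 ± 10.2) were at similar means. MTERF1, which binds the DNA behind the rRNA genes, had 21.1, 8.54, 7.11 and 6.86 (10.9 ± 6.84).

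Among the processing factors, ELAC2 cuts tRNAs at their 3' end and had 65.5, 106, 117 and 89.5 TPM over protein-coding genes in replicates 1 to 4. The subunits of the mitochondrial RNase P, which cuts at the 5' end, are HSD17B10, TRMT10C and PRORP (listed as KIAA0391). Their means were 186 ± 41.3, 42.8 ± 12.5 and 37.4 ± 19.6 (SD, n = 4). HSD17B10 was lower in replicate 1 than in replicates 2 and 3, whereas TRMT10C and PRORP were highest in replicate 1. MTPAP, the poly(A) polymerase, had 24.7, 14.2, 7.42 and 9.65.

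Among the RNA-binding factors, SLIRP had the highest mean of the list (232 ± 105, SD, n = 4), and its partner LRPPRC, with which it stabilizes mitochondrial mRNAs, had 67.3 ± 18.1. FASTKD4 (listed as TBRG4) had 213 ± 37.8, and GRSF1, a protein of the mitochondrial RNA granules, was the steadiest, with 26.9, 26.7, 23.6 and 25.1. The degradation factors PNPT1 and SUPV3L1 had 37.1 ± 19.3 and 36.3 ± 10.3. The replication factors POLG and TWNK had 70.5 ± 14.9 and 19.2 ± 11.6. Of the 18 factors 9 were highest and 6 lowest in replicate 1, so not all of them shared the order of the mitochondrial mRNAs. How many of all genes were highest or lowest in that replicate was not counted. These counts therefore cannot be read as a trait of the factors.

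The nuclear genome holds copies of mitochondrial genes that can share reads with them. By symbol, the deposited genes included MTRNR2L1 to MTRNR2L10, 10 copies of MT-RNR2, which had 0, 42, 32 and 26 counts in all in replicates 1 to 4. This was at most 0.0244% of the counts of MT-RNR2. MTRNR2L2 had 0, 22, 19 and 10 counts, MTRNR2L8 had 0, 11, 7 and 11, MTRNR2L9 had 0, 4, 4 and 2, MTRNR2L3 had 0, 2, 2 and 1, and MTRNR2L4 had 0, 3, 0 and 2. All were at 0 in replicate 1, as MT-RNR2 was.

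For the mRNAs the nearest nuclear transcripts were found by sequence in GENCODE release 29. Each of the 13 mRNAs matched a pseudogene transcript, with 98.6% identity over 1543 bases for MT-CO1 (MTCO1P12), 98.5% for MT-ATP6 (MTATP6P1), 98.4% for MT-ND2 (MTND2P28) and 86.0% for MT-CYB (MTCYBP35). The share of 50-base windows found letter for letter in a nuclear transcript was 49.5% for MT-CO1, 46.7% for MT-ATP6, 43.6% for MT-ND2 and 30.6% for MT-CO3. It was 1.19% for MT-CYB and 0% for MT-ND3 and MT-ND4L. Counts of the mRNAs with the higher shares, MT-CO2 and MT-ND1 among them, are therefore less certain. None of the symbols of the pseudogenes nearest to the 13 mRNAs is among the deposited gene symbols. Some genes carry other symbols there and positions were not compared, so this does not show that the pseudogenes are absent. The log2 deviation of replicate 1 from the others was only weakly correlated with this share over the 13 mRNAs (Spearman correlation -0.16), with GC content (0.10) and with length (-0.08). These are descriptions over 13 genes of 1 chromosome.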

How the data were processed

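Total RNA of 4 HaCaT samples was sequenced on a standard Illumina library. The authors deposited raw counts per gene with the length used, plus RPKM for replicates 1 and 2 and TPM for replicates 3 and 4. Per the labels, HISAT2, HISAT, TopHat2, Bowtie2 and hg19 were named, without versions or roles. The deposited RPKM and TPM values equalled those computed from the deposited counts and lengths to a relative difference of 6.66e-07 or less. All values here were computed from the counts. Since the position of the mitochondrial genes equals GRCh38, GENCODE release 29 was used for their sequences, and nuclear coordinates were not used.

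The members and gene lists were chosen with earlier results of these data known. Every mitochondrial mRNA, rRNA and tRNA was named, as were 18 nuclear factors, the 5 nuclear copies of MT-RNR2 with the highest mean count and the highest nuclear subunit of each complex.

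Shares have exact 95% Clopper-Pearson intervals, and ratios of counts have intervals made from them. Ratios within replicates were tested by two-sided exact sign-flip permutation tests with Benjamini-Hochberg adjustment over 9 ratios. The planned tests covered 4 replicates, but the 2 ratios with rRNA used 3, because no rRNA read was counted in replicate 1. The total counts were 73082279, 17056035, 19745170 and 19083836 in replicates 1 to 4, so that 3 counts, taken as the limit of detection, are 0.0410, 0.176, 0.152 and 0.157 CPM (counts per 1000000 counted reads). The repeats are biological per the study's text. Pseudogenes were sought with BLAST+ 2.17.0. The calculations were tested on simulated data. The software was Python 3.11.15 with SciPy 1.17.1, pandas 2.3.3 and NumPy 2.4.6, and figures were drawn in matplotlib 3.10.9.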

Additional observations from a re-analysis of the deposited data

Results flagged for a closer look

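In 6 of 42 sets of 4 values, 1 replicate lay farther from the nearest other than Dixon's 95% limit for 4 values. Chance gives about 1 in 20, or 2.1 of 42, and the sets are not independent of each other. The share of all genes that this limit would flag was not computed. The 6 therefore cannot be read as particular to these genes. The replicate was replicate 1 in all 6. The tRNA share of the mitochondrial counts was 0.299% there and 0.0590% to 0.0958% in the others. MT-CO1 took 34.1% of the mitochondrial mRNA counts per kilobase there and 14.7% to 17.9% in the others. MT-ND2 took 0.750% there and 3.13% to 3.54% in the others. PRORP, a subunit of the mitochondrial RNase P, stood at 66.7 TPM over protein-coding genes there and at 25.4 to 29.3 in the others. POLRMT, the mitochondrial RNA polymerase, stood at 18.0 there and at 66.1 to 73.5 in the others. MTERF1 stood at 21.1 there and at 6.86 to 8.54 in the others. Of the reads of replicate 1, 76.1% fell on protein-coding genes, against 95.3% to 96.4% elsewhere, and the part of this in the 6 differences was not tested.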

How the results depend on the processing

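Of 101 alternatives to 14 results, 93 were counted as kept, 7 moved the value and 1 reversed it. Kept means the same direction and side of the threshold, or a move below the SD between replicates (for counts, below 1.5 times). With 4 or fewer replicates the exact sign-flip test could not pass the threshold for any ratio. A ratio was therefore counted as kept whenever its direction held, so the 93 do not show that the sizes of the ratios were stable. The mitochondrial share, 3.52% of counts, was 7.44% of TPM over all genes, and on the log2 scale the mitochondrial count was 8.76 above the upper quartile of nuclear protein-coding counts. By counts per kilobase the tRNA share was 1.93% in place of 0.130%. The log2 ratio of rRNA to mRNA turned to -1.58 with a pseudocount of 1 TPM, which brings in replicate 1 with its 0 rRNA counts (exact sign-flip test, p = 0.875). It was 1.73 by the median over genes and 1.22 without length correction, in place of 0.64, and both were counted among the 93. The strand ratio of tRNAs was -4.90 with that pseudocount, in place of -6.26. Without length correction 7 neighbouring mRNA pairs, in place of 3, kept their direction in all replicates, and leaving out each replicate in turn, with the mRNAs ordered anew and so other pairs, gave 1 to 5. Leaving out replicate 1 moved most each of the 7 ratios without rRNA, and leaving out replicate 4 moved most the ratio of rRNA to mRNA (to 1.02) and of MT-RNR2 to MT-RNR1 (to 1.53). Leave-one-out log2 ratios of mitochondrial to nuclear subunits ran from 2.64 to 4.4 for complex I, 2.86 to 4.6 for complex III, 3.79 to 4.92 for complex IV and 2.19 to 4.26 for complex V. No ratio of tRNAs by strand could be had with a mean count of at least 10, since no heavy-strand tRNA then kept had a read in replicates 2 to 4. The mRNAs alone took 2.65% of all counts and 2.79% of protein-coding counts, alternatives chosen after seeing the data. No paired analysis was possible because the series has 1 group. Depth limits the tRNAs, the capture of such short RNAs by the libraries was not tested, and 4 replicates limit every test.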
